A study of Drosophila melanogaster with 29 samples.

Results

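HMR (Hybrid male rescue) is a chromatin protein that contributes to lethality in hybrids between *D. melanogaster* and *D. simulans*. It interacts with the Heterochromatin Protein HP1a and is found at centromeres, at pericentromeric heterochromatin and at a limited number of sites on the chromosome arms. Insulator proteins such as BEAF-32, Su(Hw) and CP190 bind between neighbouring genes or at promoters and are known to affect the folding of chromatin and the separation of regulatory domains. The cytological region 31 is a stretch of euchromatin on chromosome arm 2L.

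Described here are 9 protein-coding genes of region 31 with an HMR site at their promoter, namely Ripalpha, Npc1a, CG5708, eEF1delta, me31B, CG5676, Rsf1, Usp14 and pie. They were chosen by measured values, because membership required an HMR site annotated as promoter-TSS in the study's peak table, within a window of 500 kb on 2L, that was held by at least 2 of 3 HMR peak lists. This rule was met by 15 genes with 17 sites in the window, and the 9 genes account for 11 of these sites. The rule does not separate the 9 genes from the other 6, so the span and spacing of the 9 depend on which genes were listed. The whole series has 371 promoter sites at 363 different transcripts, and 794 sites of any kind in at least 2 lists. The same lists therefore fixed the number, the spacing and the list position of the sites, and these are given as a description without a test.

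The lists come from ChIP-Seq in untreated S2-DRSC cells, a line derived from *D. melanogaster* embryos, all grown under the same conditions. Immunoprecipitation was done with the rat anti-HMR antibody 2C10 in 3 biological replicates, and as background (control IgG) with a mouse anti-FLAG antibody in 2 replicates of the same cell line. These 5 peak lists were used, and the other samples of the series were not analysed here. The HMR lists hold 1151, 903 and 781 peaks in replicates 1, 2 and 3, called from 7190138, 11589116 and 11484450 tags, and the control lists hold 22 and 242 peaks, called from 8794859 and 16782808 tags. Of these tags, 2.67%, 1.51% and 1.49% lay in peaks for HMR and 0.02% and 0.24% for the control, so that HMR replicate 1 had the fewest tags but the most peaks and the largest share of tags in them. The caller's limit was 30, 41 and 41 tags per peak for HMR and 34 and 51 tags for the control, so that a site absent from a list may lie just under its limit. The lists give a position for each peak and an order, but no tag count or enrichment, and the strength of binding at the 9 genes is therefore not known from them.

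In the window, replicate 1 placed 20 peaks, replicate 2 placed 17 and replicate 3 placed 14, against no peak in either control list. Peaks of different replicates that overlapped by at least 1 bp were joined into a site. This gave 21 sites in the window, of which 17 were in at least 2 lists and all 17 are promoter sites. Over the whole genome, 52.4% of the joined sites were in at least 2 lists, a share the choice of the window and of the genes has already used. The sites of the 9 genes begin at Ripalpha, at 10200928 on 2L (dm3 assembly), and end at pie, at 10423404, and lie within 222.2 kb from the centre of the first to that of the last. The first 8 genes, from Ripalpha to Usp14, take up 113.4 kb of this stretch.

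**Figure D1:**
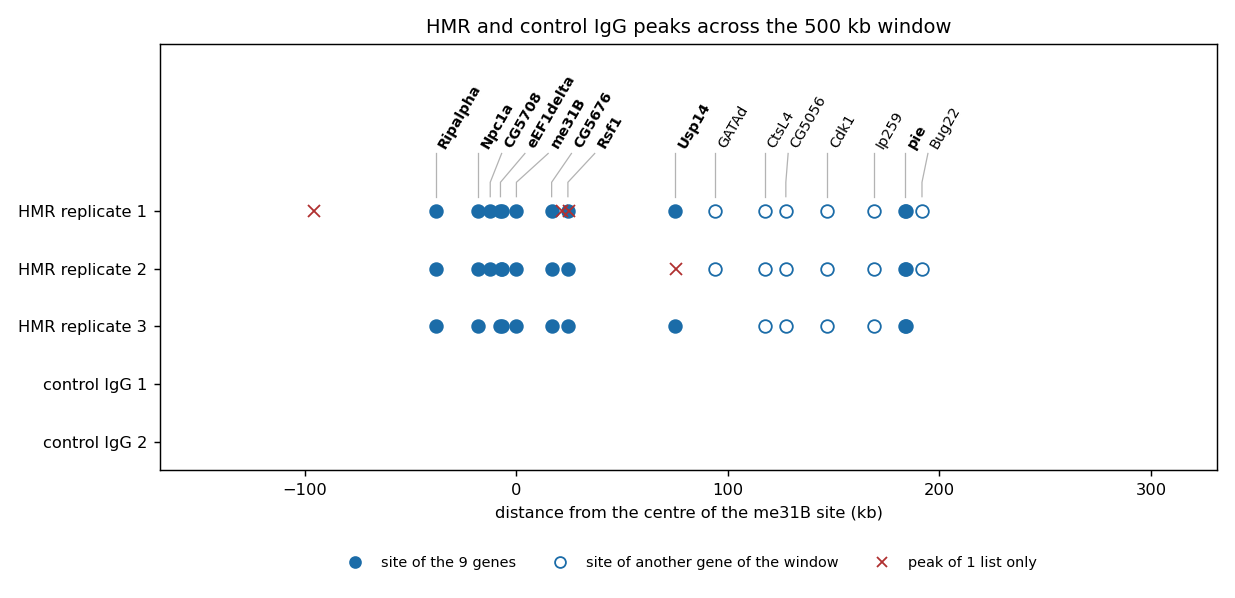
Peaks of the 3 HMR lists and the 2 control IgG lists across the 500 kb window, plotted as distance in kb from the centre of the me31B site. Filled circles are sites of the 9 genes (bold names), open circles sites of the other 6 genes and crosses the 4 peaks that only 1 list held; both control rows are empty.

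Of the 11 sites, 9 were held by all 3 lists (81.8%), and 7 of the 9 genes had at least one such site. Among the 354 promoter sites outside the window, 68.4% were held by all 3 lists. The exceptions were CG5708, which was absent from replicate 3, and Usp14, which was absent from replicate 2. Replicate 1 held all 11 sites, and replicates 2 and 3 held 10 each. The joined sites were 209 to 263 bp long. Since the caller gave each peak the same length, this range reflects how far the peaks of the replicates were shifted against each other and not the width of binding.

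Of the 9 genes, 2 carried a pair of sites at their promoter, namely eEF1delta and pie. None of the other 6 genes of the window had a pair. Outside the window, 1.72% of the 348 transcripts with a promoter site had more than one. This share is by transcript, so a gene with sites annotated to different transcripts is not counted as a pair there. The gene eEF1delta encodes a subunit of the elongation factor complex that recharges eEF1A with GTP during translation. Its sites span 10231612 to 10231857 and 10232317 to 10232552, are both annotated to NM_135517 and are separated by 459 bp, or 700 bp between their centres. Each of the sites was found in all 3 lists, so the pair was resolved in every replicate. In the list order, the second site came before the first in each of them. It stood at 261 of 1151, 153 of 903 and 291 of 781 in replicates 1, 2 and 3, compared with 310, 212 and 325 for the first site.

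The gene pie (pineapple eye), known for its role in the survival of eye cells and the maintenance of germline stem cells, had sites from 10422716 to 10422928 and from 10423168 to 10423404, both annotated to NM_001273419. They lie 239 bp apart, or 464 bp between their centres, close to the 400 bp that the caller requires between peaks of one list. All 3 lists held both sites. The list position of the first site was 431 in replicate 1, 394 in replicate 2 and 468 in replicate 3, and that of the second was 328, 407 and 496. The first site preceded the second in replicates 2 and 3 but not in replicate 1, so unlike at eEF1delta no constant order was seen within the pair.

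The site of me31B took the earliest position among the 11 sites in each of the 3 lists. me31B is a DEAD-box RNA helicase that represses the translation of maternal mRNAs and is a component of P bodies. Its site, from 10239171 to 10239389 (NM_078809), stood at 127 of 1151 in replicate 1, at 112 of 903 in replicate 2 and at 210 of 781 in replicate 3. Expressed as a percentage of the length of the list, these positions are 11.03%, 12.4% and 26.9%, with a mean of 16.8% ± 8.79 (SD, n = 3 lists). It was ahead of all 10 other sites in every list that held both. The centres of its peaks in the 3 replicates lay within 18 bp.

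Next in the order came the second eEF1delta site at 25.6% ± 10.5, the first eEF1delta site at 30.7% ± 9.63 and Ripalpha at 30.9% ± 7.25 (mean list position ± SD, n = 3 lists each). In vertebrates the counterpart of Ripalpha brings the single-strand binding protein RPA into the nucleus. Its site, from 10200928 to 10201167 (NM_135507), stood at 282, 350 and 229 in replicates 1, 2 and 3. Ripalpha was the only one of the 9 genes that stood earlier in replicate 3 than in replicate 2 when positions are taken as percentages, at 29.3% against 38.8%. Each of these means differs from the next by less than the SD of either. Within the lists, the second eEF1delta site came before the first in all 3 and before Ripalpha in 2. The first eEF1delta site came before Ripalpha in 1 of the 3 lists. The means of me31B and the second eEF1delta site differ by less than the larger of their SDs, although within each list me31B came first.

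Rsf1, an RNA-binding protein that counteracts SR proteins in splicing, had a site from 10263504 to 10263736 (NM_057653) at position 327 in replicate 1, 267 in replicate 2 and 413 in replicate 3. The mean was 37.0% ± 13.8 (SD, n = 3 lists). Replicate 1 held a further peak only 251 bp beyond this site, from 10263988 to 10264188, at position 467, and another one from 10260938 to 10261138 at position 559. Neither was found in replicates 2 and 3, so that Rsf1 counts as a gene with 1 site.

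Npc1a encodes a membrane protein that moves sterols out of endosomes and lysosomes. Its site, from 10221157 to 10221419 (NM_135513), was found at 352, 485 and 507 in the lists of replicates 1, 2 and 3, with a mean of 49.7% ± 17.5 (SD, n = 3 lists). The peaks were shifted against each other by up to 62 bp, the widest shift among the 9 sites in all 3 lists. CG5676, for which RefSeq lists FUNDC1 as a synonym, a mitochondrial outer membrane protein that acts as a mitophagy receptor in vertebrates, had a site from 10255801 to 10256055 (NM_135518). This site stood at 622, 544 and 521 and was the last of the 11 in replicate 1, the last of the 10 held by replicate 2 and the last but one of the 10 held by replicate 3. Its mean position of 60.3% ± 6.33 (SD, n = 3 lists) was the latest of the 9 genes, with means taken over the lists that held a site. It was behind 9 of the 10 other sites in every shared list. The exception was Usp14, which was absent from replicate 2 and stood later in replicate 3, at 70.6% against 66.7%.

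CG5708 and Usp14 were the members just inside the limit of 2 lists. The site of CG5708, from 10226794 to 10227002 (NM_135515), stood at 356 of 1151 in replicate 1 and at 449 of 903 in replicate 2, with centres 8 bp apart, and was absent from replicate 3. Usp14 is a deubiquitinating enzyme of the proteasome. Its site, from 10314297 to 10314524 (NM_001273392), stood at 353 of 1151 in replicate 1 and at 551 of 781 in replicate 3. Replicate 2 did hold a peak near Usp14, from 10314653 to 10314853 at position 457, but it lay 128 bp beyond the site and was not joined to it. With peaks up to 200 bp apart joined, a setting chosen after seeing the data, Usp14 was found in all 3 lists and the number of such sites at the 9 genes was 10, compared with 68.9% of the promoter sites outside the window under the same setting.

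The sites just outside the limit are the 4 peaks of the window that a single list held. They are the peak of replicate 2 beyond Usp14, both further peaks of replicate 1 near Rsf1, and a peak of replicate 1 from 10143646 to 10143846. The last of these stood at 974 of 1151 and lies 57.3 kb from Ripalpha, the nearest of the 9 genes.

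**Figure D2:**
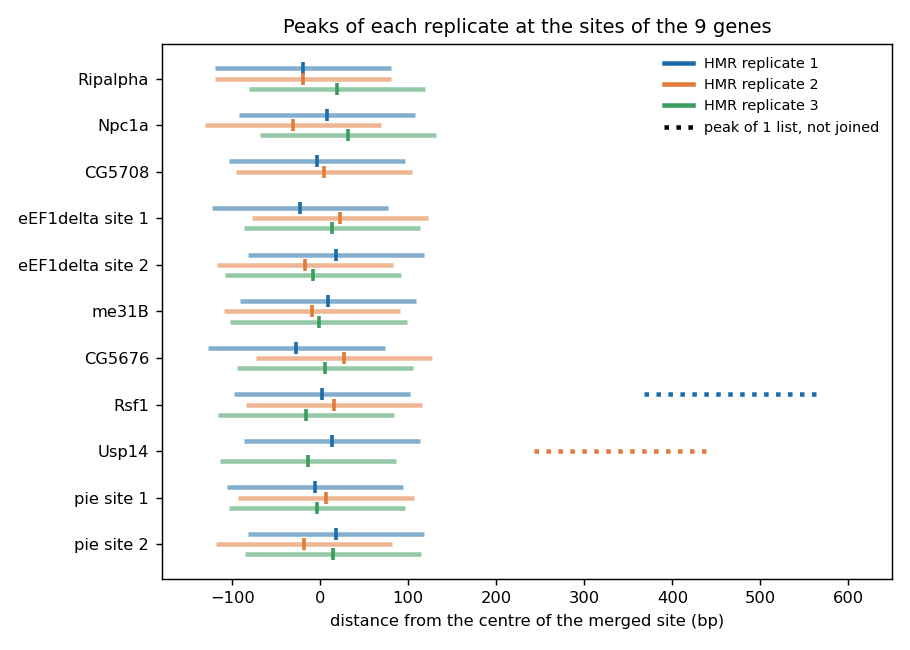
Extent of the peak of each HMR replicate at the 11 sites, as distance in bp from the centre of the joined site; bars are the peaks and ticks their centres. At the sites in all 3 lists the centres lie within 12 to 62 bp of each other, while the dotted peaks beyond Rsf1 (replicate 1) and Usp14 (replicate 2) are separate from the sites.

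At the 9 sites in all 3 lists, the centres of the 3 peaks lay within 12 to 62 bp, with a median of 36 bp. For the 242 promoter sites outside the window that were in all 3 lists, the median was 24.5 bp and 90% lay within 52.0 bp. The sites of Npc1a and CG5676, with 62 and 54 bp, exceed this value, and the narrowest were the first pie site with 12 bp and me31B with 18 bp.

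None of the 11 sites stood at the very start of a list, and in replicate 1 all but CG5676 were before its middle. Their positions ran from 11.03% to 54.0% in replicate 1 with a median of 28.5%, from 12.4% to 60.2% in replicate 2 with a median of 41.2%, and from 26.9% to 70.6% in replicate 3 with a median of 56.4%. The medians of the promoter sites outside the window were 31.6%, 33.6% and 45.8% in the same lists. By these medians the 9 genes stood slightly earlier in replicate 1 and later in replicates 2 and 3. Each median leaves out the sites that a list did not hold. Of the promoter sites outside the window, replicates 1, 2 and 3 held 96.3%, 82.8% and 89.3%. Of the 11 sites they held 100%, 90.9% and 90.9%. What these unequal shares add to the difference in medians was not tested. The interquartile range of the promoter sites outside the window held all but me31B (11.03%) and CG5676 (54.0%) in replicate 1, all but me31B (12.4%) and CG5676 (60.2%) in replicate 2, and every one of the 10 sites in replicate 3. The lists differ in length and in their limit on tags. Sites were ranked within each list, but the means ± SD pool percentages of different lists. The comparison of replicates 2 and 3 at Ripalpha also sets percentages of different lists side by side. Outside the window the medians themselves rose from 31.6% in replicate 1 to 45.8% in replicate 3. These means and their SDs therefore mix differences between lists with those between sites, and only the order within a list is free of this. For peaks on 2L, list order followed the caller's own numbering. The Spearman rho was 0.999 in replicate 1 (192 peaks) and in replicate 2 (131 peaks). Order and numbers come from the same caller, so this does not show what the order measures. Replicate 3 carries no such numbers, so that its order was not checked against them.

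**Figure D3:**
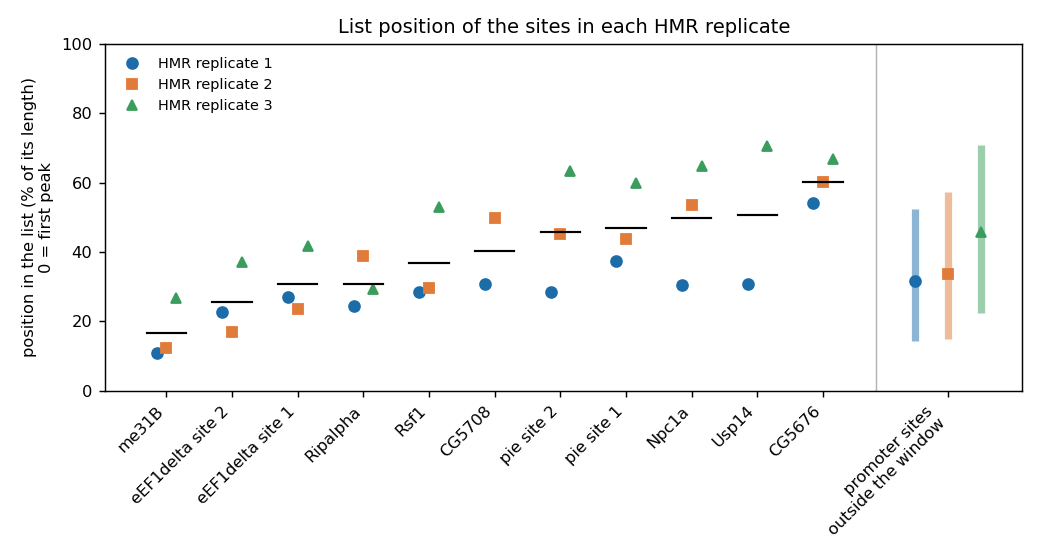
Position of the 11 sites in the list of each HMR replicate, as a percentage of the length of the list (0 is the first peak), with a horizontal line for the mean over lists; on the right, medians (symbols) and interquartile ranges (bars) of the promoter sites outside the window. me31B comes first in all 3 lists with 11.03%, 12.4% and 26.9%, and CG5676 has the latest mean over the lists that held a site, 60.3%.

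The study sorted its sites by the HP1a signal next to them. Its HP1a-associated class contains 5 of the 11 sites, which are both sites of eEF1delta, the me31B site and both sites of pie, and all 5 of them were in all 3 HMR lists. Outside the window, 105 of the 354 promoter sites (29.7%) were in this class. The 5 of 11 counts eEF1delta and pie with 2 sites each. By gene it is 3 of the 9, and no share by gene was computed outside the window. The other 6 sites, those of Ripalpha, Npc1a, CG5708, CG5676, Rsf1 and Usp14, are in the study's other class, and 4 of them were in all 3 lists. Median list positions were 26.9%, 23.5% and 41.6% in replicates 1, 2 and 3 for the HP1a-associated sites, against 30.6%, 49.7% and 64.9% for the sites of the other class. The ranges overlap in each list, because the pie sites stood later than Ripalpha in all 3 replicates. Outside the window, neither list position nor presence in all 3 lists was split by class. Whether the same differences between classes occur there is therefore not shown. The HP1a libraries themselves were not analysed here.

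Neighbouring sites of the 9 genes were separated by a median of 7.27 kb between their centres, with a range of 0.464 to 108.4 kb (10 distances). The tightest stretch runs from Npc1a to me31B, in which successive distances were 5.61 kb to CG5708, 4.84 kb to the first eEF1delta site, 0.70 kb to its second site and 6.85 kb to me31B. CG5676 follows after 16.6 kb and Rsf1 after another 7.69 kb. Between Rsf1 and Usp14 lies the widest distance without any shared site in the cluster, 50.8 kb. The 108.4 kb from Usp14 to pie contain the sites of 5 other genes of the window.

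For all 15 genes of the window the median distance was 12.2 kb (16 distances, 0.464 to 50.8 kb). For sites on the rest of 2L it was 151.8 kb (109 distances, 0.443 to 1243.7 kb). Beyond the first and the last site of the window, the next shared sites were 282.8 kb before Ripalpha, at the promoter of CG5885, and 240.7 kb past the last site, at the end of CG31871. The window was chosen with these peaks known, and the difference in spacing is a description only.

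**Figure D4:**
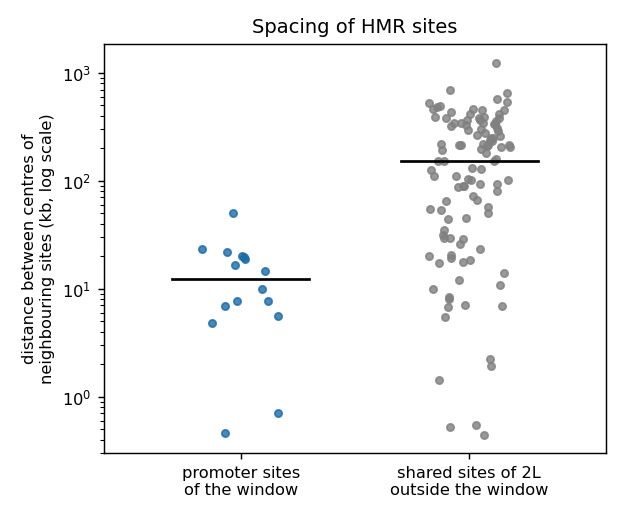
Distances between the centres of neighbouring HMR sites in kb on a log scale, for the 17 promoter sites of the window and for the sites of 2L outside it that at least 2 lists held; each point is a distance and lines are medians. The medians are 12.2 kb and 151.8 kb.

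The other 6 genes of the window that met the same rule were GATAd (10333170 to 10333404), CtsL4 (10356617 to 10356851), CG5056 (10366540 to 10366771), Cdk1 (10386207 to 10386447), Ip259 (10408152 to 10408369) and Bug22 (10430908 to 10431125), with 1 site each. Of these, 4 were in all 3 lists, and GATAd and Bug22 were absent from replicate 3. Their median list positions were 26.9%, 33.6% and 39.6% in replicates 1, 2 and 3. Ip259, with 18.3%, 19.7% and 31.8%, was later than me31B in each list but earlier than every other site of the 9 genes in replicate 1, and it is the only one of the 6 in the HP1a-associated class.

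The sites skip most genes of the region. By the gene order in RefSeq (Release 6, used only for names and order), 82 protein-coding genes lie from the first to the last of the 15 genes, so that 18.3% of them carried an HMR site. This stretch begins and ends at a gene with a site. The same share over all genes of the genome was not computed, so whether 18.3% is low or high is not shown. None of the 9 genes is directly next to another gene with a site. A single coding gene stands between CG5708 and eEF1delta (ova) and between eEF1delta and me31B (mthl15), and 17 stand between Rsf1 and Usp14. Each site carries only 1 transcript in the annotation, and whether the promoter of a neighbouring gene is also covered was not tested.

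No control IgG peak lay within 10 kb of any of the 11 sites. Outside the window, 5.65% of the promoter sites had one. On 2L the control lists hold 2 peaks in replicate 1 and 16 in replicate 2. The control peak nearest to any of the 9 genes was from 9396957 to 9397157 in control replicate 2, 803.8 kb from the Ripalpha site and 1026.0 kb from the second pie site. In control replicate 1 the nearest, from 6791834 to 6792034, was 3408.9 kb from Ripalpha and 3631.1 kb from the second pie site. The control libraries had to reach 34 and 51 tags for a peak, and weaker control signal at the 9 promoters cannot be seen in the lists.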

How the data were processed

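HMR and control IgG ChIP-Seq peaks of untreated S2 cells were analysed. The authors aligned reads to dm3 with Bowtie 2.2.6 (unique reads only, filtered with samtools 1.2). HOMER 4.8 was run on each sample with an input as background, at a false discovery rate of 0.001, 4-fold over input and over the surrounding 10000 bp. Replicates were not pooled, and per the file headers HMR and control libraries of the same replicate number share an input. The deposited score column holds the same number for every peak and was not used. Positions are given 1-based. The list of HMR replicate 3 ends its lines with carriage returns alone.

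Annotations and classes come from the study's peak table, and gene names from RefSeq (Release 6). No comparison was tested, because the lists that chose the genes also hold the values. The members and lists were chosen with earlier results of these data known. Outside the window, distances were taken between sites of 2L in at least 2 lists. Genes named are the 9 members, the other genes of the window, and, chosen afterwards, their neighbours. Joining of peaks was tested on simulated sites that lay far apart. Peaks as close together as those of eEF1delta, pie, Rsf1 and Usp14 were not covered by this test. Planned counts of sequence motifs and promoter sequences were not analysed here. Python 3.11.15, NumPy 2.4.6, SciPy 1.17.1 and Matplotlib 3.10.9 were used.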

Additional observations from a re-analysis of the deposited data

How the results depend on the processing

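With an overlap of at least 100 bp asked for, all 9 genes and 11 sites remained. Asking for all 3 lists left 7 genes and 9 sites, without CG5708 and Usp14. With only peaks up to the middle of each list, 6 genes and 8 sites were left, and Npc1a, CG5676 and Usp14 were lost. When each HMR replicate was left out and a site had to be in both others, 7 to 8 genes and 9 to 10 sites remained, and the median distance between sites was 6.85 to 10.4 kb, against 7.27 kb in the main setting. The distance of 10.4 kb came from leaving out replicate 2, which removes the site of CG5708. The mean over lists of the median list position was 42.0%, and 34.9% to 48.8% with a replicate left out. No control peak lay within 1 or 100 kb of a site, and none within 10 kb in either control list alone. Sites of a single list could not be assigned to genes, since the study's table covers only shared sites, and the alternative of taking any list was not run for the genes. Neither were the alternatives on sequence motifs. The part of depth in which sites reach a list was not tested, and the positions carry no measure of enrichment. No paired analysis was possible because the lists give no tag count or enrichment to compare between libraries, and no comparison was tested. HMR and control libraries of the same number share an input, but this pairing was not used.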
